A study of Mus musculus with 20 samples.

Results

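The proteasome is the barrel-shaped protease that breaks down proteins tagged with ubiquitin. A core particle made of alpha and beta rings holds the proteolytic sites, and a regulatory cap with a ring of ATPases and a lid of non-ATPase subunits recognises, unfolds and feeds in the substrate. In cells exposed to interferon, and in many leukocytes, the catalytic beta subunits Psmb5, Psmb6 and Psmb7 are replaced by Psmb8, Psmb9 and Psmb10, which changes the peptides made for antigen presentation. Other proteins dock on the core in place of the cap, namely the activators Psme1 with Psme2, Psme3 and Psme4, and the inhibitor Psmf1. In the uterus of an ovariectomized mouse, estrogen sets off early transcription within hours and growth and division of the epithelium within a day.

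The members were the genes whose array name begins with Psm, followed by a letter from a to g and a digit. There were 44 such genes, on 67 probes, among the 27962 gene names and 41174 probes of the array, and 42 of the 44 are proteasome genes. They comprised 7 alpha-ring and 7 beta-ring subunits of the core, 6 ATPases and 11 non-ATPases of the cap, 3 chaperones of cap assembly (Psmd5, Psmd9 and Psmd10), the 3 immune beta subunits, the activators Psme1, Psme3 and Psme4, the inhibitor Psmf1 and Psma8, the alpha subunit of the testis. The remaining 2 were Psmc3ip, a meiotic recombination protein named for its binding to a cap ATPase, and Psme2b-ps, the array's name for probes that also list accessions of Psme2, so that the 2 could not be told apart. No probe carried the names Psmb11, Psme2 or Psmg1 to Psmg4.

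The mice were adult female C57BL/6J animals of at least 10 weeks, all ovariectomized and rested for 10 to 14 days. Each received 1 subcutaneous injection of 100 µl sesame oil, alone as the vehicle or with 250 ng estradiol (E2), 750 µg bisphenol A (BPA, a plastics monomer) or 750 µg HPTE (formed in the body from methoxychlor, an insecticide). Whole uteri were taken after 2 or 24 h, and the labels give 1 uterus to each of the 20 single-colour Agilent arrays, with 3 arrays in each group except E2 at 24 h, which had 2 (replicates 2 and 3). The only vehicle arrays were labelled 24 h and served as the control at both times, so that the effect of a compound at 2 h and of the hours since injection cannot be told apart. All comparisons with vehicle share those 3 arrays.

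A level below is the log2 of the probe's processed intensity minus the log2 of the 75th percentile of its array, so that 0 is the brightness of a probe at that percentile. It ranks arrays for 1 probe and not different genes against each other. Each gene is given by the probe with the highest mean signal. All 44 members were above background on all 20 arrays, and 72.69% to 81.34% of probes were above background per array. A gene is called higher or lower where limma, fitted to all 32456 tested probes over the 7 groups, gave an adjusted p under 0.05. A moderated F test over the 7 groups called 43 of the 44 members, with Psmb10 the exception (adjusted p = 0.0837), beside 81.4% of all probes.

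The 4 uterine markers (Esr1, Pgr, Hoxa10 and Hoxa11) were above background on all arrays. Some libraries also held transcripts of other cells. Pancreas enzymes, summed over 8 genes, reached 2000 times the 75th percentile in E2 2 h replicate 2, 163 times in replicate 3, and 4.88 and 12.9 times at E2 24 h, against 0.244 to 0.546 on the other arrays. Sperm-cell genes, summed over 10 genes, stood at 117, 38.8 and 34.8 in the vehicle arrays and between 0.34 and 14.3 in the treated ones. Leukocyte markers, summed over 8 genes, reached 46.2 and 21.9 in BPA 2 h replicates 1 and 2, and lay between 5.06 and 19.9 elsewhere. The vehicle arrays all lay at position 1 of their slides. The E2 arrays lay at positions 1 and 2 at 2 h and at position 2 at 24 h. The BPA arrays lay at positions 2 and 3 and the HPTE arrays at positions 3 and 4. Position and treatment therefore cannot be told apart between vehicle and E2 24 h, BPA or HPTE. The same holds for HPTE against E2 at each time, and for HPTE against BPA at 24 h, where the HPTE arrays all lay at position 4.

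At 24 h after E2 the subunits of the core and the cap rose together. All 31 were called higher, with a median log2 difference from vehicle of 0.98 and a range of 0.64 to 1.75, while the median of all tested probes was -0.15. Of the 44 members 40 were called higher and none lower, against 26.3% of all probes called higher and 37.6% called lower. The only members not called were Psmb8, Psmb9, Psmf1 and Psma8. With whole uteri, more of a cell type and more RNA per cell cannot be told apart: the summed epithelial markers were 166 to 192 at E2 24 h and 76.7 to 89.5 in vehicle. They were 107 to 116 at BPA 24 h and 132 to 144 at HPTE 24 h.

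The other 5 treated groups fell well below that level for the core and cap. The 31 subunits had a median difference from vehicle of 0.11 at E2 2 h, 0.17 at BPA 2 h, 0.24 at HPTE 2 h, 0.04 at BPA 24 h and 0.31 at HPTE 24 h. Calls of a higher level were made for 5, 14, 19, 2 and 23 of them in that order, beside 11.1%, 19.3%, 19.9%, 5.09% and 14.9% of all probes. Without scaling between arrays the medians at E2 2 h and BPA 24 h changed sign, to -0.12 and -0.08. The medians of all tested probes were then -0.29 and -0.15, beside -0.06 and -0.03 with scaling.

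**Figure D1:**
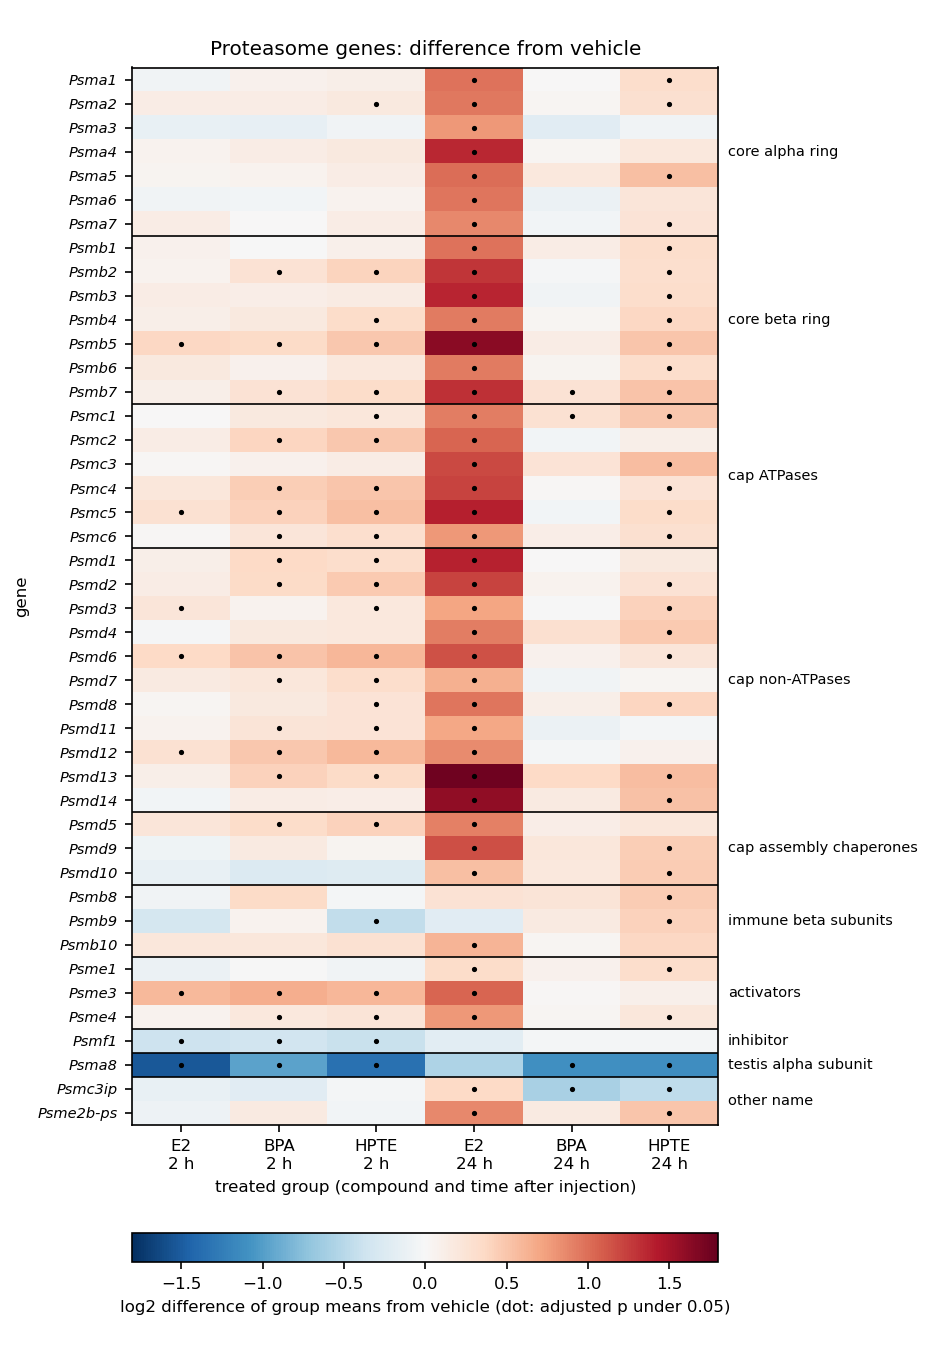
Fitted log2 difference from vehicle (colour) of the 44 members (rows, grouped by role) in the 6 treated groups (columns), with a dot where the adjusted p was under 0.05. The E2 24 h column is dark for all core and cap subunits (0.64 to 1.75), the BPA 24 h column is pale, and Psma8 is the row that is dark blue in most columns. Without scaling between arrays the median of the core and cap at E2 2 h and BPA 24 h changes sign. That of all tested probes is then -0.29 and -0.15.

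The 3 proteolytic sites of the core were all called. Psmb5, the chymotrypsin-like site, had levels of 2.29, 2.43 and 2.42 in vehicle and of 3.95 and 4.04 at E2 24 h. Both E2 arrays lay more than 1 log2 unit above every array of every other group, the highest of which was 2.94 at HPTE 24 h. The difference from vehicle was 1.62 (SE 0.09), a 3.06-fold rise with an adjusted p of 4.07e-09. Psmb7, the trypsin-like site, went from 1.35, 1.61 and 1.60 to 2.82 and 2.83, a 2.48-fold rise (log2 1.31, adjusted p = 1.64e-08). Psmb6, the caspase-like site, went from 4.08, 4.15 and 4.01 to 4.80 and 5.22, a 1.90-fold rise (log2 0.93, adjusted p = 1.33e-05). For Psmb6 the 2 E2 arrays were further apart than the 3 vehicle arrays, and still did not overlap with them.

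The beta ring as a whole had a median rise of 1.29 at E2 24 h, and the alpha ring, which gates the entrance to the core, one of 0.97, with all 7 members called in each. Within the alpha ring Psma4 stood at 2.97 and 2.98 at E2 24 h, against 1.71, 1.66 and 1.69 at E2 2 h and 1.40, 1.88 and 1.57 in vehicle. Its difference between the E2 times was 1.29. In the cap, the 6 ATPases had a median rise of 1.12 and the 11 non-ATPases one of 0.97, and all were called.

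Psmd13, a subunit of the lid, had the largest difference of all members. Its levels were -0.72, -0.23 and -0.16 in vehicle and 1.37 and 1.39 at E2 24 h, a 3.36-fold rise (log2 1.75, 95% interval 1.42 to 2.08, adjusted p = 1.65e-07). Psmd14, the lid's deubiquitinase that removes the ubiquitin chain from a substrate, went from 2.29, 2.58 and 2.56 to 3.97 and 4.15, a 3.01-fold rise (log2 1.59, adjusted p = 4.08e-09). On the array of vehicle replicate 1 both genes were at their lowest, and the E2 arrays were far from overlapping with any vehicle array. The 3 assembly chaperones, which help build the cap and do not stay in it, were all called as well (median 0.90). Psmd9, for one, stood at -0.62, -0.61 and -0.52 in vehicle and at 0.51 and 0.64 at E2 24 h (log2 1.16). The other Psmd9 probe was not called there (log2 0.12, limma adjusted p = 0.552).

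**Figure D2:**
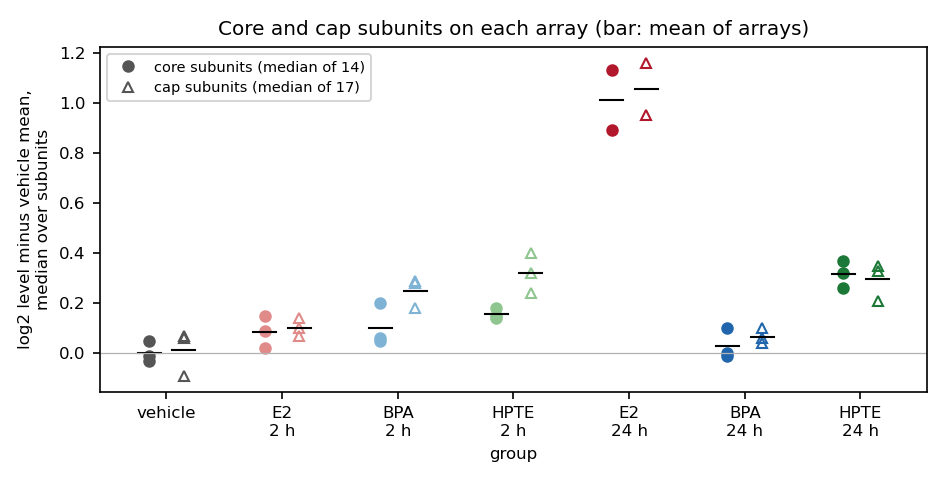
Each symbol is 1 array: the median over 14 core subunits (circles) or 17 cap subunits (triangles) of the log2 level minus the vehicle mean, with a bar at the mean of the arrays. The 2 E2 24 h arrays stand at 0.89 and 1.13 for the core and at 0.95 and 1.16 for the cap, above all others; at 2 h the cap lies at or above 0.18 in all BPA and HPTE arrays.

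The E2 24 h result stood within a slide too: E2 24 h replicate 3 and vehicle replicate 3 shared a slide and differed by a median of 1.13 over the core and cap, and E2 24 h replicate 2 exceeded the E2 2 h array of its slide in 31 of 31 subunits (median 0.83). Between the E2 times 40 members were called higher at 24 h and none lower, beside 25.9% of all probes called higher and 30.1% lower. The largest differences were those of Psmd13 (log2 1.64) and Psmd14 (log2 1.63, 3.1-fold). Psma8 was among the 40 (log2 0.97, adjusted p = 0.00588), since its level at 24 h was -2.23 and -2.14 and at 2 h -2.82, -3.49 and -3.15.

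Probes of 1 gene did not all move together. Of the 44 genes 18 had more than 1 probe, and at E2 24 h 3 other probes were called lower where the probe used here was called higher, namely 1 each of Psmc2 (log2 -0.74), Psmd7 (log2 -0.53) and Psme4 (log2 -0.79). The remaining other probes of these genes, 1 of Psmd7 (log2 0.75) and 2 of Psme4 (log2 0.93 and 0.41), were called higher. Of the 22 other probes that were tested, 15 had the same call as the first at E2 24 h. The share was 13 of 22 at HPTE 24 h, with 1 opposite call, for the same Psme4 probe (log2 -0.58), while its remaining 2 (log2 0.17 and -0.25) were not called.

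At 2 h the rise was small. After BPA and HPTE its median was larger in the cap than in the core, and after E2 the medians were alike. After HPTE 14 of the 17 cap subunits were called higher (median 0.31) and 5 of the 14 core subunits (median 0.16). After BPA the counts were 11 of 17 (median 0.23) and 3 of 14 (median 0.10), and after E2 they were 4 of 17 (median 0.11) and 1 of 14 (median 0.10). In the beta ring the medians after HPTE, BPA and E2 were 0.33, 0.17 and 0.11, with 4, 3 and 1 of 7 called higher. In the alpha ring they were 0.13, 0.07 and 0.05, with 1, 0 and 0 of 7 called. Whether cap and core, or the 2 rings, differed was not tested. None of the core and cap subunits was called lower in any of the 3 groups. The probe used for the cap subunit Psmd4 was not called at 2 h (log2 -0.02 after E2, 0.17 after BPA and 0.19 after HPTE). Its second probe was called higher after all 3 compounds (log2 0.71, 1.13 and 1.28 in that order).

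Over all members, 6 were called higher and 2 lower at E2 2 h, beside 11.1% and 17% of all probes, and the count of higher calls is near that background. At BPA 2 h 17 were higher and 2 lower (all probes: 19.3% and 30.2%), and at HPTE 2 h 22 were higher and 3 lower (all probes: 19.9% and 28.2%), so that for BPA and HPTE the share of members called higher was above that of all probes and the share called lower was below it. Without BPA 2 h replicate 2 the calls at BPA 2 h fell from 19 to 12. Without scaling between arrays E2 2 h had 0 members higher and 5 lower. When only the 2 groups compared entered the fit, the calls were 5 at E2 2 h and 7 at BPA 2 h.

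The 6 members called higher after E2 at 2 h were Psmb5, Psmc5, Psmd3, Psmd6, Psmd12 and the activator Psme3. Psmd6, a subunit of the lid, rose after all 3 compounds. Its levels were 2.31, 2.43 and 2.31 in vehicle, 2.73, 2.77 and 2.63 after E2, 2.81, 2.92 and 2.83 after BPA, and 2.93, 2.94 and 2.97 after HPTE. No treated array overlapped with vehicle, and the differences were 0.36 (adjusted p = 0.00058), 0.51 (1.54e-05) and 0.60 (2.9e-06), the last a 1.51-fold rise. Psmd12, another lid subunit, had levels of 3.58, 3.59 and 3.50 in vehicle, and of 3.95, 4.18 and 3.99 after BPA and 4.18, 4.19 and 4.07 after HPTE at 2 h. Its differences were 0.49 after BPA (adjusted p = 0.000285) and 0.59 after HPTE (4.54e-05). Psmb5 had the largest rise of a core subunit after E2 at 2 h, with levels of 2.78, 2.71 and 2.74 that all lay above vehicle (log2 0.37, adjusted p = 0.00435); without scaling it was 0.14 and not called.

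The early rise of the cap had mostly gone by 24 h after BPA, when 1 of the 17 cap subunits was called higher than vehicle (median 0.07). After HPTE 12 of the 17 were called higher at 24 h (median 0.29, beside 0.31 at 2 h), though some single cap subunits fell between the times. For BPA 13 members were lower at 24 h than at 2 h and 2 were higher (all probes: 20.2% lower and 28.2% higher), and 9 of the 13 were cap subunits. Psmd12 was back at 3.56, 3.50 and 3.49 after BPA (24 h against 2 h: log2 -0.52, adjusted p = 0.000129) and at 3.68, 3.62 and 3.63 after HPTE (log2 -0.50, adjusted p = 0.000144). The ATPase Psmc5 went from 2.39, 2.52 and 2.37 at BPA 2 h to 1.93, 1.93 and 2.00 at 24 h, beside 1.96, 2.03 and 2.02 in vehicle (24 h against 2 h: log2 -0.47, adjusted p = 0.000154). After both compounds these genes at 24 h were within 0.2 log2 units of a vehicle array, except Psmc5 after HPTE, which was still at 2.43, 2.37 and 2.20. The 2 members that were higher at 24 h than at 2 h after BPA were Psmf1 (log2 0.32, adjusted p = 0.00546) and Psmd10, an assembly chaperone also known as gankyrin (log2 0.44, adjusted p = 0.00328).

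For HPTE the calls between the times went both ways, 14 higher and 11 lower at 24 h, near the 29.5% and 24.6% of all probes. In the cap 8 subunits were lower and 5 higher at 24 h, and in the core 2 were higher (Psma1 and Psma5) and none lower. Psmd10 had levels of 0.20, 0.37 and 0.08 at HPTE 2 h and of 0.89, 0.86 and 0.96 at 24 h (log2 0.69, adjusted p = 6.49e-05). It was the only assembly chaperone with a level below vehicle on average at BPA 2 h and HPTE 2 h, where it was not called. Psmc3ip was lower at 24 h than at 2 h (log2 -0.43, adjusted p = 0.000775).

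At 24 h BPA and HPTE stood apart from each other as well as from E2. After BPA 2 members were called higher and 2 lower, near the 5.09% and 8.03% of all probes. The 2 higher ones were the ATPase Psmc1 (log2 0.27, adjusted p = 0.0274) and Psmb7 (log2 0.26, adjusted p = 0.0481). Leaving out vehicle replicate 1, BPA 24 h replicate 1, BPA 24 h replicate 3 or the slide scanned later left 2 calls in place of 4 each time, and Psmb7 was not called without BPA 24 h replicate 2 either (log2 0.29). Psmc3ip was lower, with -0.03, -0.01 and -0.09 against 0.69, 0.58 and 0.34 in vehicle (log2 -0.58, adjusted p = 0.000697).

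After HPTE at 24 h 30 members were called higher and 2 lower, against 14.9% and 19.1% of all probes. They included all 7 beta-ring subunits, 4 of 7 alpha-ring subunits, 5 of 6 ATPases and 7 of 11 non-ATPases. Psmd13 again had the largest difference, with levels of 0.11, 0.25 and 0.22 (1.48-fold, log2 0.56, adjusted p = 0.00593). The ATPase Psmc3 had levels of 3.01, 3.06 and 2.96 against 2.27, 2.57 and 2.55 in vehicle (1.46-fold, adjusted p = 0.000168). The alpha subunit Psma5 had 5.19, 5.12 and 5.15 against 4.69, 4.61 and 4.55 (1.45-fold, adjusted p = 0.000123). None of these HPTE arrays overlapped with vehicle. The count depended on the scaling and on the slides: 17 were higher under normexp with quantile normalization, 15 under quantile normalization, 4 without scaling and 12 with the slide as a fixed block (30 as a random block).

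BPA and HPTE are both bisphenols, and HPTE carries a trichloromethyl group on the carbon that joins its rings where BPA carries methyl groups. They were given at the same dose, so that their arrays were compared directly at each time over all 44 members. At 2 h no member was called between them by limma with Benjamini-Hochberg adjustment, beside 0.24% of all probes called higher in HPTE and 0.197% called lower. The largest differences, HPTE minus BPA, were those of Psmb9 (log2 -0.52, 95% interval -0.84 to -0.19, adjusted p = 0.129), Psmb8 (log2 -0.38, interval -0.67 to -0.08, adjusted p = 0.195) and Psma8 (log2 -0.37, interval -0.87 to 0.14, adjusted p = 0.48). Those intervals leave room for a difference of more than 0.5 log2 units. Without BPA 2 h replicate 3 the calls between them were 2.

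At 24 h 12 members were called higher after HPTE than after BPA and none lower, where 2.99% and 1.09% of all probes were called. The 12 were the core subunits Psma1, Psma5, Psma7, Psmb2, Psmb3, Psmb4 and Psmb5, the cap subunits Psmc5, Psmd3, Psmd8 and Psmd14, and the activator Psme1. Psmd3, a lid subunit, had the largest difference: 6.20, 6.15 and 6.18 after HPTE and 5.72, 5.81 and 5.75 after BPA (1.33-fold, log2 0.41, adjusted p = 0.00954). Psmb5 had 2.94, 2.93 and 2.76 after HPTE and 2.54, 2.45 and 2.52 after BPA (log2 0.37, adjusted p = 0.0268). Every HPTE array was above every BPA array for each of the 12, which the same arrays called. The share of all probes without such overlap was not counted.

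These calls were close to the threshold, and leaving out single arrays ended many of them. Dropping replicate 2 of either compound, or the later slide, left 0 calls. Dropping BPA 24 h replicate 3 or HPTE 24 h replicate 1 left 2, and dropping BPA 24 h replicate 1 left 5. It was 2 under normexp or quantile normalization and 0 without scaling or with the slide as a block. On the 2 slides that held both compounds at 24 h the median over all 31 core and cap subunits, HPTE minus BPA, was 0.27 and 0.12.

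E2 was given at another dose, so that its values are set beside those of the other compounds without a comparison of potency. At 2 h, 1 member was higher after BPA than after E2 and none lower (all probes: 7.92% and 11.1%), and 8 were higher after HPTE than after E2 and none lower (all probes: 8.46% and 8.18%), 7 of the 8 in the cap. Both of these counts rose without scaling, to 26 and 39 members, a setting in which the brightness of a whole array enters every probe. The 75th percentile signal was 1319.8 to 1702.6 on the E2 2 h arrays. It was 1780.7 to 1797.4 at BPA 2 h and 1803.5 to 1983.1 at HPTE 2 h. The share of all probes called in that setting is not given here. At 24 h, 40 members were lower after BPA than after E2 and none higher (all probes: 24.6% lower and 33.2% higher), and 37 were lower after HPTE and 1 higher (all probes: 21.6% lower and 27.3% higher). For Psmb5 the differences from E2 at 24 h were -1.49 for BPA and -1.12 for HPTE. The 1 member that was higher after HPTE than after E2 was Psmb9 (1.55-fold, log2 0.63, adjusted p = 0.00638).

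Of the 3 immune subunits only Psmb10 was called at E2 24 h, where all 3 constitutive counterparts were; the difference between the sets was not tested. Psmb8, which replaces Psmb5, had levels of 3.00 and 3.16 beside 2.64, 2.85 and 2.97 in vehicle, a difference of 0.26 (95% interval -0.07 to 0.59, adjusted p = 0.162). Psmb9, which replaces Psmb6, had 2.21 and 1.98 beside 2.19, 2.37 and 2.36, a difference of -0.21 (interval -0.58 to 0.15, adjusted p = 0.304). The 2 groups overlapped for Psmb9 and did not for Psmb8. Psmb10, which replaces Psmb7, had 4.44 and 4.54 beside 3.94, 3.79 and 3.93 (1.53-fold, log2 0.61, adjusted p = 0.00959), but was not called under normexp (log2 0.30), under quantile normalization (log2 0.26) or without E2 24 h replicate 3 (log2 0.56). The mean level of the 3 immune subunits minus that of the 3 counterparts, set to the vehicle mean, was -0.98 and -1.15 on the E2 24 h arrays and 0.00, -0.07 and 0.07 on the vehicle arrays.

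**Figure D3:**
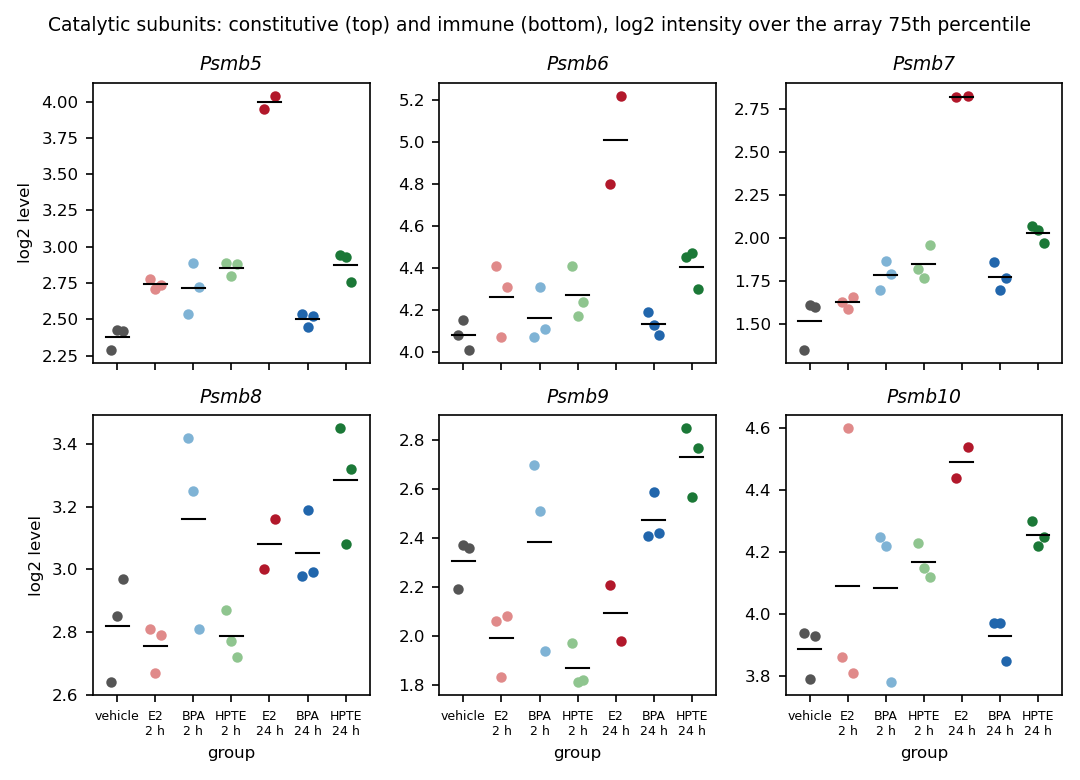
Log2 level over the array's 75th percentile on each array (points) in the 7 groups, with a bar at the group mean, for the 3 constitutive catalytic subunits (top) and the 3 immune ones (bottom). Psmb5, Psmb6 and Psmb7 are highest at E2 24 h, whereas Psmb9 is highest at HPTE 24 h (2.57 to 2.85) and lowest at HPTE 2 h (1.81 to 1.97).

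After HPTE Psmb8 and Psmb9 were higher at 24 h than at 2 h. Psmb9 went from 1.97, 1.81 and 1.82 to 2.85, 2.57 and 2.77, with no overlap (1.82-fold, log2 0.87, adjusted p = 0.000205). Psmb8 went from 2.87, 2.77 and 2.72 to 3.45, 3.08 and 3.32 (log2 0.50, adjusted p = 0.00682). Against vehicle Psmb9 was lower at HPTE 2 h (log2 -0.44, adjusted p = 0.0262) and higher at HPTE 24 h (log2 0.42, adjusted p = 0.0445), and Psmb8 was higher at HPTE 24 h (log2 0.46, adjusted p = 0.0185). These 3 calls against vehicle were lost when single arrays were left out: that of Psmb9 at 2 h without vehicle replicate 2 or 3 or HPTE 2 h replicate 2 or 3 (log2 -0.41 to -0.42), that of Psmb9 at 24 h without any vehicle array or without HPTE 24 h replicate 1 or 3 (log2 0.36 to 0.45), and that of Psmb8 without vehicle replicate 1 or HPTE 24 h replicate 1 or 3 (log2 0.37 to 0.45).

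Psmb8 and Psmb9 were set beside the leukocyte markers. In the 3 BPA 2 h arrays, whose summed leukocyte markers were 46.2, 21.9 and 9.36, Psmb8 was 3.42, 3.25 and 2.81 and Psmb9 was 2.70, 2.51 and 1.94. Psmb5 on the same arrays was 2.54, 2.89 and 2.72 and did not have that order. In the BPA 24 h group (14.6, 19.9 and 13.6) and in the HPTE 24 h group (15.8, 7.02 and 8.18) the array with most leukocyte signal also had the highest Psmb8 and Psmb9. In vehicle (7.12, 7.94 and 9.18) and at E2 2 h (10.4, 6.18 and 7.48) the array with most signal had the highest Psmb8 (2.97 and 2.81). It did not have the highest Psmb9 there. At E2 24 h the array with more signal (5.52) had the higher Psmb8 (3.16) and the lower Psmb9 (1.98). At HPTE 2 h the array with most signal (6.48) had the lowest Psmb8 (2.72). Across groups, E2 2 h replicate 1 had a signal of 10.4 and Psmb9 at 2.06, and HPTE 24 h replicate 3 had 8.18 and 2.77. All 8 leukocyte markers were above background on at least 1 array of each group, and the part of leukocytes in these levels was not tested. Without BPA 2 h replicate 3 the difference of Psmb8 from vehicle at BPA 2 h was 0.52 and called, beside 0.34 with all arrays, and that of Psmb9 was 0.30 and called, beside 0.07.

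**Figure D4:**
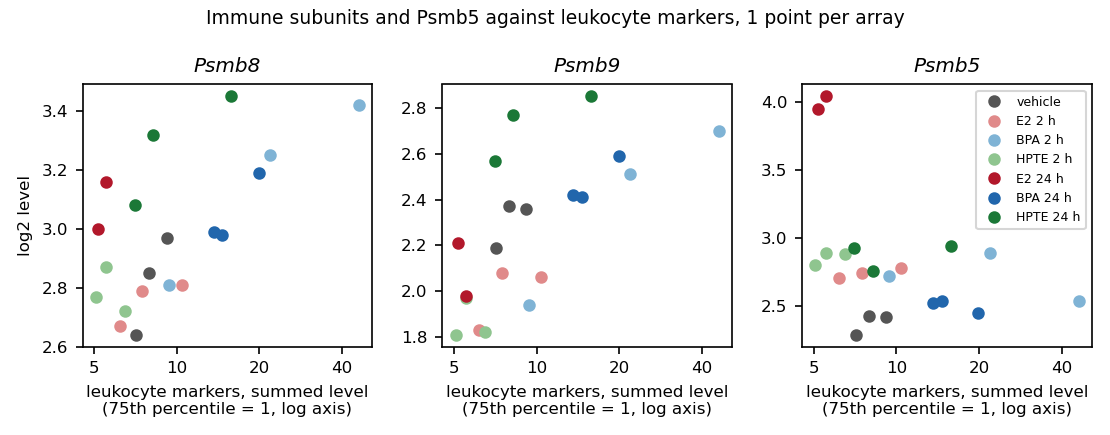
Log2 level of Psmb8, Psmb9 and Psmb5 (vertical axes) against the summed level of 8 leukocyte markers (horizontal log axis, 75th percentile = 1), with 1 point per array coloured by group. The 3 BPA 2 h arrays (9.36 to 46.2) rise from left to right for Psmb8 and Psmb9, and the 2 E2 24 h arrays (5.16 and 5.52) stand at the left, at the top for Psmb5 only.

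One E2 2 h array also stood apart for an immune subunit: Psmb10 was 4.60 in replicate 2, the array with pancreas signal of 2000, and 3.86 and 3.81 in the other two. Replicate 3, with pancreas signal of 163, had the lowest of the 3 Psmb10 levels. Without replicate 2 the counts at E2 2 h were 7 higher and 2 lower. The part of the pancreas transcripts in these values was not tested.

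The genes that work with the immune subunits in antigen processing gave mixed values. Of 10 such genes none was called at E2 2 h, and at E2 24 h 3 were higher and 2 lower, shares near or below the 26.3% and 37.6% of all probes. The higher ones were the chaperones Calr (log2 2.01) and Pdia3 (log2 1.46), which also fold other glycoproteins, and the peptide transporter Tap1 (log2 0.59, adjusted p = 0.017), and the lower ones were Tap2 and Tapbp (log2 -0.27, adjusted p = 0.011). At HPTE 24 h 5 of the 10 were higher and none lower (all probes: 14.9% and 19.1%), all of them parts of the presentation machinery itself: H2-D1 (log2 0.60, adjusted p = 0.00838), Tap1 (log2 0.60, adjusted p = 0.0177), H2-K1, Tap2 and Tapbp. BPA had 2 of 10 called higher at each time (all probes: 19.3% at 2 h and 5.09% at 24 h) and HPTE 3 of 10 at 2 h (all probes: 19.9%).

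The probes of the counterpart pairs were set against each other because an immune subunit and the subunit it replaces are paralogs. In the lines below capitals mark the bases that are identical in the best ungapped alignment of a pair, and positions are those of the array design on build mm7. Psmb5 lies at chr14:49480764-49480823 on the minus strand, the second Psmb8 probe at chr17:32280668-32280727 on the plus strand, Psmb6 at chr11:70609086-70609145 on the plus strand and Psmb9 at chr17:32262147-32262206 on the minus strand.
Psmb5: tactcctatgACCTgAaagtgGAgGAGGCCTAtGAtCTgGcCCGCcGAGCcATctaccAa
Psmb8: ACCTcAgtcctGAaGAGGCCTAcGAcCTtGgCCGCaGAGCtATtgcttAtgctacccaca
Psmb6: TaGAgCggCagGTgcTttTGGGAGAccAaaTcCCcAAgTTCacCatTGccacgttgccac
Psmb9: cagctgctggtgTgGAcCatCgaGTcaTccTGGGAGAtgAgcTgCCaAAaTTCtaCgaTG
The second Psmb8 probe shared 31 of 50 aligned bases with that of Psmb5 (62.0%), and the Psmb8 probe used for the levels above shared 18 of 57 (31.6%). Psmb9 and Psmb6 shared 27 of 48 (56.2%), and Psmb10 and Psmb7 23 of 56 (41.1%). The second Psmb8 probe differed from vehicle by 0.42 at HPTE 24 h (adjusted p = 0.0602) and by 0.47 at BPA 2 h (adjusted p = 0.0269). At E2 24 h it differed by 0.24 (limma adjusted p = 0.263), beside 0.26 for the Psmb8 probe used for the levels.

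Among the activators Psme3 had the largest early rise. Psme3 caps the core of the nuclear proteasome and opens it without ubiquitin. Its levels were -0.88, -0.61 and -0.56 in vehicle, -0.29, 0.12 and -0.12 at E2 2 h, -0.06, 0.06 and -0.07 at BPA 2 h and -0.07, -0.18 and -0.02 at HPTE 2 h. All 9 arrays at 2 h were above all vehicle arrays, and the differences were 0.59 (SE 0.11, 1.5-fold, adjusted p = 0.00106), 0.66 (1.58-fold, adjusted p = 0.000194) and 0.60 (adjusted p = 0.000404).

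By 24 h the compounds had parted for Psme3. It was 0.24 and 0.50 after E2 (2.08-fold over vehicle, log2 1.05, adjusted p = 3.09e-06), -0.62, -0.59 and -0.79 after BPA, and -0.54, -0.65 and -0.57 after HPTE. The BPA arrays lay within the range of vehicle, HPTE replicate 1 lay just above it and the other two HPTE arrays within it. The falls from 2 h were -0.65 (adjusted p = 0.00021) and -0.50 (adjusted p = 0.00133) on the log2 scale. The change between the E2 times went the other way (log2 0.47).

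Psme1, a chain of the interferon-inducible activator, and Psme2b-ps, whose probes cannot be told apart from Psme2, were not called at 2 h after any compound. Psme2b-ps had levels of 5.06, 4.96 and 4.89 in vehicle, 5.73 and 5.95 at E2 24 h and 5.62, 5.39 and 5.40 at HPTE 24 h. Neither group overlapped with vehicle, and the rises were 1.83-fold (log2 0.87, adjusted p = 6.76e-06) and 0.50 on the log2 scale (adjusted p = 0.00145). Between the HPTE times Psme2b-ps differed by 0.55 (adjusted p = 0.000243). Psme1 was 4.08, 4.03 and 4.12 in vehicle, 4.33 and 4.48 at E2 24 h and 4.39, 4.40 and 4.40 at HPTE 24 h, with differences of 0.33 (adjusted p = 0.000711) and 0.32 (adjusted p = 0.00123). For E2 that difference was 0 under normexp with quantile normalization and -0.02 under quantile normalization. At BPA 24 h neither gene was called.

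Psme4, a large activator of nuclear proteasomes, had 4.16 and 4.34 at E2 24 h against 3.50, 3.46 and 3.46 in vehicle (1.72-fold, log2 0.78, adjusted p = 6.67e-07). Its other 3 probes are given above. At HPTE 24 h it was 3.73, 3.64 and 3.64 (log2 0.20, adjusted p = 0.0423), a call that ended when any 1 array of either group was dropped (log2 0.17 to 0.21), and the difference was -0.12 with the mean of its probes.

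**Figure D5:**
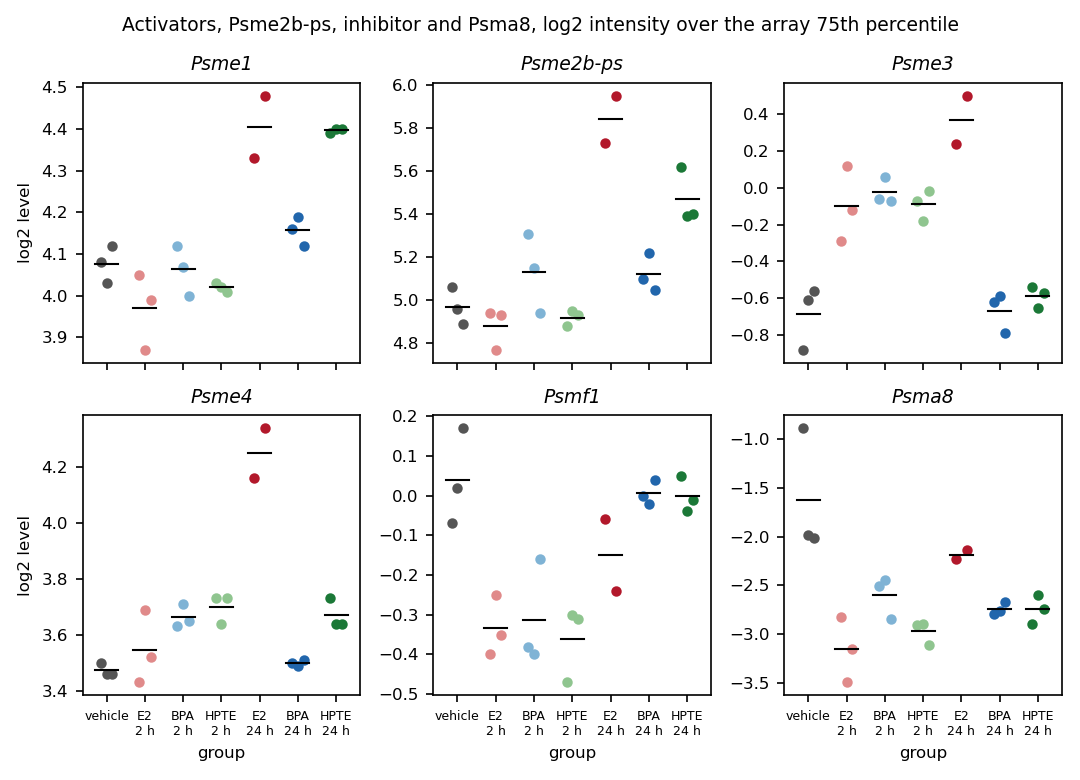
Log2 level over the array's 75th percentile on each array (points), with a bar at the group mean, for the activators Psme1, Psme3 and Psme4, Psme2b-ps, the inhibitor Psmf1 and the testis subunit Psma8 in the 7 groups. Psme3 is above vehicle in all 9 arrays at 2 h and close to the vehicle levels at 24 h after BPA and HPTE; Psma8 is at -0.89, -1.98 and -2.01 in vehicle and lower on all treated arrays.

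The inhibitor Psmf1 went in the opposite direction from the cap at 2 h. Its levels were -0.07, 0.02 and 0.17 in vehicle, -0.40, -0.25 and -0.35 after E2, -0.38, -0.40 and -0.16 after BPA and -0.47, -0.30 and -0.31 after HPTE. No array at 2 h overlapped with vehicle, and the differences were -0.37 (adjusted p = 0.00409), -0.35 (adjusted p = 0.00295) and -0.40 (adjusted p = 0.00114). At 24 h it was at 0.00, -0.02 and 0.04 after BPA and 0.05, -0.04 and -0.01 after HPTE, within the range of vehicle, and at -0.06 and -0.24 after E2 (log2 -0.19, adjusted p = 0.0966). Its other probes did not settle the direction at E2 24 h, with 1 called higher (log2 0.66, adjusted p = 4.35e-05) and 1 called lower (log2 -0.77, adjusted p = 0.000134).

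Psma8, which replaces an alpha subunit in the proteasome of male germ cells, was lower than vehicle on all 17 treated arrays. It was -0.89, -1.98 and -2.01 in vehicle, and the highest treated array was at -2.14. The differences were -1.52 at E2 2 h (adjusted p = 0.000213), -0.97 at BPA 2 h (0.00334), -1.34 at HPTE 2 h (0.000266), -1.11 at BPA 24 h (0.00665), -1.12 at HPTE 24 h (0.00241) and -0.56 at E2 24 h (0.0791). Vehicle replicate 1 had both the highest Psma8 level and the highest sum of sperm-cell genes (117, against 38.8 and 34.8 in the other two), and all vehicle arrays exceeded all treated arrays for that sum. Among the treated arrays the 2 did not have the same order. The E2 24 h arrays had the highest Psma8 there (-2.23 and -2.14), with sperm-cell sums of 0.34 and 0.825. The BPA 2 h arrays had the highest sums there (14.3, 9.9 and 6.87), with Psma8 at -2.51, -2.44 and -2.84. The part of germ-cell transcripts in the Psma8 difference was not tested.

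Other genes of the ubiquitin pathway were called in part. Of 26 further genes, which include shuttle factors and the transcription factors of proteasome genes, 9 were higher and 1 lower at E2 2 h (median 0.11), 13 and 1 at BPA 2 h (median 0.17) and 14 and 1 at HPTE 2 h (median 0.22), beside 11.1%, 19.3% and 19.9% of all probes called higher. The list was chosen with results known, and 16, 12 and 11 of its genes were not called. Adrm1, a ubiquitin receptor of the cap that the naming rule does not take in, had the largest difference at HPTE 2 h (log2 1.14, adjusted p = 1.16e-07) and at BPA 2 h (log2 0.97, adjusted p = 6.16e-07), and was called at E2 2 h too (log2 0.52, adjusted p = 0.000281). Nfe2l1, the transcription factor that restores proteasome genes when proteasome activity falls, differed by 0.55 at E2 2 h (adjusted p = 0.000262) and by 0.57 at HPTE 2 h (adjusted p = 7.5e-05). Ngly1, the glycanase that helps to activate that factor, was the 1 lower gene in each of the 3 groups (log2 -0.64 at BPA 2 h and -0.56 at HPTE 2 h).

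At E2 24 h 13 of those 26 genes were higher and 1 was lower (median 0.24, against 0.98 for the core and cap). Of all probes 26.3% were called higher and 37.6% lower. The shuttle factor Ubqln1 (log2 1.59, adjusted p = 5.26e-09), the deubiquitinase Uchl5 of the cap (log2 1.22, adjusted p = 8.35e-08) and the shuttle factor Rad23b (log2 1.19, adjusted p = 7.09e-08) had the largest differences, and Pomp, the chaperone of core assembly, rose by 0.98 on the log2 scale (adjusted p = 2.55e-08). At BPA 24 h none was higher and 1 was lower (all probes: 5.09% and 8.03%). At HPTE 24 h 5 were higher and 3 lower (all probes: 14.9% and 19.1%).

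Other large complexes of the cytosol are given for scale. All 8 subunits of the CCT chaperonin, which folds actin and tubulin, were higher at E2 24 h (median 1.09, Cct3 1.69). At E2, BPA and HPTE 2 h 3, 6 and 7 of the 8 were higher, beside 11.1%, 19.3% and 19.9% of all probes. Of 9 subunits of the COP9 signalosome, which shares its architecture with the proteasome lid, 8 were higher at E2 24 h (median 0.75), 1 at BPA 24 h and 5 at HPTE 24 h, beside 26.3%, 5.09% and 14.9% of all probes. The rise at E2 24 h was therefore not confined to proteasome genes.

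Of 8 heat-shock and endoplasmic chaperones, 5, 6 and 6 were higher at E2, BPA and HPTE 2 h with medians of 0.47, 0.60 and 0.64, above the medians of the proteasome cap. Of all probes 11.1%, 19.3% and 19.9% were called higher in those 3 groups. Dnajb1, a partner of the heat-shock proteins, led at all 3 (log2 0.95, 1.22 and 1.21). Of 7 antioxidant genes known as targets of NFE2L2, a factor related to Nfe2l1, 5 were higher at E2 24 h (median 1.14, all probes: 26.3%), among them Txnrd1 (log2 1.42), Nqo1 (log2 1.32) and Srxn1 (log2 1.15). At 2 h 2 of the 7 were higher after each compound, beside the 2 h shares of all probes just given. They were Gclc and Txnrd1 after E2, Hmox1 and Txnrd1 after BPA, and Srxn1 and Txnrd1 after HPTE. Nqo1 was lower at 2 h after BPA (log2 -0.72) and HPTE (log2 -0.49).

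The starts of the members' genes are shown because so many of them rose together at E2 24 h. RefSeq windows of 300 bases (250 before and 50 after the annotated start, build GRCm38.p6) were held for 36 of the 44 members, as 38 windows, among 32851 in all. Psma8, Psmb1, Psmb2, Psmb7, Psmc3, Psmd3, Psmd7 and Psme2b-ps were not searched. They were searched on both strands for TGACNNNGC, the core of the element that NFE2L1 and NFE2L2 bind, for CTTCCG, the core of an ETS-factor site, for 2 copies of GAAA spaced by 2 bases, as in interferon-response elements, and for the estrogen-response half-sites GGTCA and TGACC spaced by 3 bases, each counted apart from the others whether or not they overlapped. CTTCCG was in 21 of the 38 windows (55.3%), of 20 genes, and in 16.9% of all windows. TGACNNNGC was in 6 windows (15.8%), those of Psmb5, Psmb6, Psmc6, Psmd12, Psmd9 and Psme4, and in 12.4% of all. The GAAA pair was in 4 windows (10.5%; Psmb3, Psmd4, Psmd9 and Psme1) and in 3.44% of all, and the estrogen-response pair was in none of the 38 and in 0.07% of all. A match to so few letters is a description of the window.

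In the following lines 80 bases before the RefSeq start are given on the strand of the gene, for Psmb5 and Psmb6, which hold TGACNNNGC there, and for the 2 lid subunits with the largest rises at HPTE 2 h. Capitals mark TGACNNNGC in Psmb5 and Psmb6, and CTTCCG or its reverse complement CGGAAG in Psmd12 and Psmd6. The stretches are chr14:54617996-54618075 (minus strand) for Psmb5, chr11:70525277-70525356 (plus strand) for Psmb6, chr11:107479448-107479527 (plus strand) for Psmd12 and chr14:14120946-14121025 (minus strand) for Psmd6.
Psmb5: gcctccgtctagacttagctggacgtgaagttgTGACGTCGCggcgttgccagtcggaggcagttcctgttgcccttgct
Psmb6: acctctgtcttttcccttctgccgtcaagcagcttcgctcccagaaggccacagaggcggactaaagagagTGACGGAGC
Psmd12: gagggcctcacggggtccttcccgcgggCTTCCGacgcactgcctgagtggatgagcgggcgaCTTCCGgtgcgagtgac
Psmd6: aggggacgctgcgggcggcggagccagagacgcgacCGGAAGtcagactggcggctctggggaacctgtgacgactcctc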

How the data were processed

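Per the labels, 500 ng uterine RNA of each of 20 mice was labelled with Cy3 and hybridised to its own array. The authors extracted the intensity of 45018 spots per array (1639 controls) with Agilent Feature Extraction 9.5. The deposited columns are the processed signal, whose log2 was taken here, and flags, a unit classed as other, for spots above background, outliers (46 to 134 per array) or saturated (at most 2 probes). The deposited value table held the same processed signals and is the setting without scaling between arrays.

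Spots of a probe were averaged, and the log2 of each array's 75th percentile (signal 1319.8 to 2046.4) was subtracted. Probes above background on all arrays of at least 1 group were tested (32456), with 1 mean per group in limma 3.58.1 (R 4.3.3), moderated with 1.903 prior degrees of freedom and adjusted by Benjamini-Hochberg within each of 15 comparisons. Groups of 2 or 3 arrays limit the precision. The fit was tested on simulated data with 200 changed probes. Alternatives were normexp (offset 50) with quantile normalization, quantile normalization, no scaling, no filter on dim probes, the mean of a gene's probes, the slide (6 slides, 2 scan days) as a fixed or random block, the replicate number as a block, only the groups compared, a fold of at least 2, and each array left out. Correlations between arrays of a group were 0.975 to 0.993. Sharing a replicate number did not pair the arrays: the median correlation of their deviations from the group means was -0.05 over 57 pairs, 12 of them above 0.1.

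The members, their roles, the gene lists and the markers were chosen with earlier results of these data known. Genes with values in the text are the catalytic subunits and counterparts, activators, inhibitor and Psma8, the 3 largest called differences in each direction per comparison with vehicle or between times, and all members called between HPTE and BPA (the 3 largest differences at 2 h). Of each other list the largest called differences are named. The values of 1 gene of these lists are not reported here. Pomp, Nfe2l1, Ngly1 and Psmd9 and the promoters shown were chosen after values were seen. Gene names are those of the array design (mm7).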

Additional observations from a re-analysis of the deposited data

Results flagged for a closer look

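Direct comparisons between treatments or between times gave the following counts of members called by limma. Between 24 h and 2 h 40 members differed after E2, 15 after BPA and 25 after HPTE. Of all probes, 25.9% were called higher and 30.1% lower after E2, 28.2% and 20.2% after BPA, and 29.5% and 24.6% after HPTE, so that the count for BPA was below the background and that for HPTE near it. At 2 h 1 member differed between BPA and E2 (all probes: 7.92% higher after BPA and 11.1% lower). Between HPTE and E2 8 differed (all probes: 8.46% higher after HPTE and 8.18% lower). At 24 h 40 differed between BPA and E2 (33.2% and 24.6%), and 38 between HPTE and E2 (27.3% and 21.6%). Between HPTE and BPA 12 differed (2.99% and 1.09%).

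The 12 members with a difference between HPTE and BPA at 24 h were higher after HPTE by 0.41 (Psmd3), 0.38 (Psmc5), 0.38 (Psmb3), 0.37 (Psmb5), 0.37 (Psmd14), 0.35 (Psma5), 0.33 (Psmb4), 0.32 (Psmb2), 0.30 (Psma1), 0.29 (Psma7), 0.28 (Psmd8) and 0.24 (Psme1) on the log2 scale. Their adjusted p-values ran from 0.00954 (Psmd3) to 0.0468 (Psmd8). Every HPTE array lay above every BPA array for each of the 12. The same arrays gave the calls, so that this is no separate result.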

How the results depend on the processing

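The rise of members at E2 24 h was called in 38 to 41 of 44 when single arrays were left out and in 38 to 40 under every scaling, with a core and cap median of 0.98 that was 0.69 under normexp, 0.64 under quantile normalization and 1.01 without scaling. For single members 1055 values under the other settings kept the call, 101 lost it, 13 gained a call and 3 that had been called changed direction. A change of direction was not counted where neither setting gave a call. The 3 were Psme1 at E2 24 h under normexp (0) and quantile normalization (-0.02), and Psme4 at HPTE 24 h with the mean of its probes (-0.12). The causes of those 3 were not tested. Leaving out the scaling moves all probes of a comparison by the same amount. The core and cap median then changed sign at E2 2 h (-0.12) and BPA 24 h (-0.08). The median of all tested probes itself went from -0.06 to -0.29 at E2 2 h when arrays were not scaled, and from -0.03 to -0.15 at BPA 24 h.

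Counts of members called moved by over 1.5 times as follows. At E2 2 h there were 5 calls without scaling, 4 with the slide as a fixed block and 5 with only the groups compared. At BPA 2 h there were 7 with only the groups compared. At BPA 24 h there were 2 without scaling, 1 with the slide block, 1 with only the groups compared and 2 without the slide scanned later. At HPTE 24 h there were 20 under normexp, 17 under quantile normalization, 6 without scaling and 14 with the slide block. Between times there were 9 for BPA with the slide block, and 16 for HPTE without scaling and 10 with the slide block. BPA against E2 at 2 h gave 9 under normexp, 8 under quantile normalization, 26 without scaling and 3 with the mean of probes, and 0 without the filter on dim probes, with the slide block, with the replicate block, with only the groups compared and without the later slide. HPTE against E2 at 2 h gave 39 without scaling, 3 with the slide block and 2 with only the groups compared. Without scaling the E2 2 h arrays were dimmer as a whole, as given above. HPTE against BPA at 24 h gave 2 under normexp and 2 under quantile normalization, and 0 without scaling, with the slide block, with only the groups compared and without the later slide. Asking for a fold of at least 2 as well left 1 at E2 2 h, 0 at BPA 2 h, 1 at HPTE 2 h, 17 at E2 24 h, 1 at BPA 24 h, 1 at HPTE 24 h, 15, 0 and 0 between the times of E2, BPA and HPTE, 15 for BPA and 7 for HPTE against E2 at 24 h, and 0 in the other comparisons of compounds. Leaving out the later slide was chosen after seeing the data.

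With each array left out in turn the counts were 6 to 9 at E2 2 h, 12 to 22 at BPA 2 h, 20 to 23 at HPTE 2 h, 2 to 6 at BPA 24 h and 23 to 29 at HPTE 24 h. Between times they were 39 to 41 for E2, 13 to 16 for BPA and 21 to 24 for HPTE. Between compounds they were 0 to 5 for BPA and 4 to 6 for HPTE against E2 at 2 h, 0 to 2 for HPTE against BPA at 2 h, 37 to 40 for BPA and 35 to 38 for HPTE against E2 at 24 h, and 0 to 9 for HPTE against BPA at 24 h. Among the 7 groups 43 to 44 members differed.

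The replicate number as a block gave 8, 18, 24, 40, 3 and 30 calls against vehicle (E2, BPA and HPTE at 2 h, then at 24 h), 40, 14 and 24 between times, 0, 7 and 0 between compounds at 2 h (BPA against E2, HPTE against E2, HPTE against BPA), and 41, 38 and 8 at 24 h. The numbers do not pair the arrays.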
